A study of Mus musculus with 12 samples.

Results

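Oxidative phosphorylation was represented by 104 protein-coding genes among 24465 genes of the series. Members were chosen by mouse symbol alone: the Nduf genes of complex I and its assembly factors, the Sdh genes of complex II, the Uqcr genes of complex III, the Cox4 to Cox8 genes of complex IV, the Atp5 genes of complex V, and the mitochondrially encoded mt-Nd, mt-Co, mt-Cytb and mt-Atp genes. Of these, 13 lie on the mitochondrial chromosome and 91 in the nucleus. The nuclear members comprised 36 genes of complex I, 8 complex I assembly factors, 4 genes of complex II, 8 of complex III, 18 of complex IV (with Ndufa4 and its paralogue Ndufa4l2) and 17 of complex V. A further 8 rows that matched the symbols were not protein-coding and were left out.

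Total RNA was sequenced from mouse bone marrow-derived macrophages (BMDMs, macrophages grown out of marrow in culture) in 4 groups of 3 libraries. The groups were Klf6fl/fl:Lyz2cre cells given 10 ng/ml TNF for 6 h, Lyz2cre cells given the same TNF, untreated Klf6fl/fl:Lyz2cre cells and untreated Lyz2cre cells. All 4 groups carry Cre recombinase at Lyz2, a gene active in myeloid cells, and the Klf6fl/fl:Lyz2cre groups also carry Klf6 alleles flanked by loxP sites, so they are called Klf6-deleted here and the other groups Lyz2cre. The sources used here do not give the strain, sex or age of the mice, nor whether libraries came from separate animals, so a p-value speaks for the spread among these libraries alone, which may be technical. Depth ran from 16.9 to 23.4 M reads per library. Values are the authors' normalized counts, that is, whole reads divided by 1 size factor per library within the untreated table or within the TNF table. Klf6 itself was measured at 4211, 4133 and 4140 normalized counts in Klf6-deleted cells given TNF and at 7622, 7155 and 7564 in Lyz2cre cells given TNF. It stood at 7004, 7405 and 6894 in untreated Klf6-deleted cells and at 10055, 9984 and 10315 in untreated Lyz2cre cells, so its reads were lower but not absent in the Klf6-deleted libraries (log2 changes -0.84 and -0.51, SE 0.0417 and 0.0359). Which exons those reads cover was not analysed here.

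Complexes I to IV of the inner mitochondrial membrane pass electrons from NADH and succinate to oxygen and, except for complex II, pump protons, and complex V (ATP synthase) uses the proton gradient to make ATP. Complexes I, III, IV and V mix subunits made from mitochondrial DNA with subunits made from nuclear genes and imported, while complex II is wholly nuclear. Mitochondrial genes are transcribed from both strands as long precursors that are cut at transfer RNAs, so their messenger RNAs are made together but decay at different rates. Activated macrophages are known to shift from respiration towards glycolysis.

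Several mitochondrially encoded members cannot be measured on their own, because a near-complete copy of their part of the mitochondrial genome lies in the nuclear genome on chromosome 1, between bases 24611535 and 24616197 of GRCm38 on the minus strand. Every 50-base word of mt-Co2 was also found in another annotated transcript, and the shares were 99.9% for mt-Co3, 99.5% for mt-Atp6, 98.8% for mt-Nd4l and 98.0% for mt-Nd3. They were 62.2% for mt-Nd4, 51.1% for mt-Co1, 8.19% for mt-Nd2 and 7.61% for mt-Nd5, and 0 for mt-Nd1, mt-Nd6, mt-Cytb and mt-Atp8. A 90-base stretch of mt-Co2 (chrM:7308-7397, plus strand) and of its copy Gm28661 (chr1:24615181-24615270, minus strand) shows the problem, and the same stretch of mt-Nd3 (chrM:9459-9548, plus strand) and its copy Gm28438 (chr1:24613030-24613119, minus strand) shows the single base, in capitals, by which those annotated sequences differ over 345 bases. All are on GRCm38, 5′ to 3′.
mt-Co2: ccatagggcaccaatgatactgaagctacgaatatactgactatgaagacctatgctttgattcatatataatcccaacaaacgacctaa
Gm28661: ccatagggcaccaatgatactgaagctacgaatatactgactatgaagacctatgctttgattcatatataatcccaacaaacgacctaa
mt-Nd3: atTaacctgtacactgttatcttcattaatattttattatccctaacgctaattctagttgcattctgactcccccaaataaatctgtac
Gm28438: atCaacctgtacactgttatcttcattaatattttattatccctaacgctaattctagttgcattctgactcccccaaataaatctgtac
Apart from mt-Atp8, which had too few reads to test, the members with at most 62.2% of such words elsewhere (mt-Nd1, mt-Nd2, mt-Co1, mt-Nd4, mt-Nd5, mt-Nd6 and mt-Cytb) are called the own-sequence members below, and mt-Co2, mt-Atp6, mt-Co3, mt-Nd3 and mt-Nd4l the copied members.

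Leaving mt-Atp8 aside, read levels followed that split. Averaged over all 12 libraries, mt-Co1, the catalytic subunit of complex IV, stood at 97476 normalized counts per kilobase, and the other own-sequence members lay between 13069 (mt-Nd4) and 28714 (mt-Cytb) per kilobase. Among the copied members mt-Co2 stood at 484 and mt-Nd4l at 178 normalized counts per kilobase, although mt-Co2 is cut from the same precursors. mt-Atp8, the shortest member at 204 bases, held 1.82 to 10.9 normalized counts in each library and was not tested. Its share of 0 comes from a search of annotated transcripts only. The gene (chrM:7766-7969) lies between mt-Co2 and mt-Atp6. The stretch between their copies on chromosome 1 (Gm10925 up to base 24614651, Gm28661 from base 24614885) was not compared with it. In untreated cells mt-Co2 was measured at 167, 391 and 348 normalized counts in Klf6-deleted libraries and at 197, 201 and 422 in Lyz2cre libraries, and its copy Gm28661 at 169, 428 and 375 against 239, 232 and 485. Gene and copy thus took similar numbers of reads in each of these libraries, and both varied over 2-fold between libraries of 1 group. The sources used here do not say how the counting treated reads that match in more than 1 place.

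**Figure D1:**
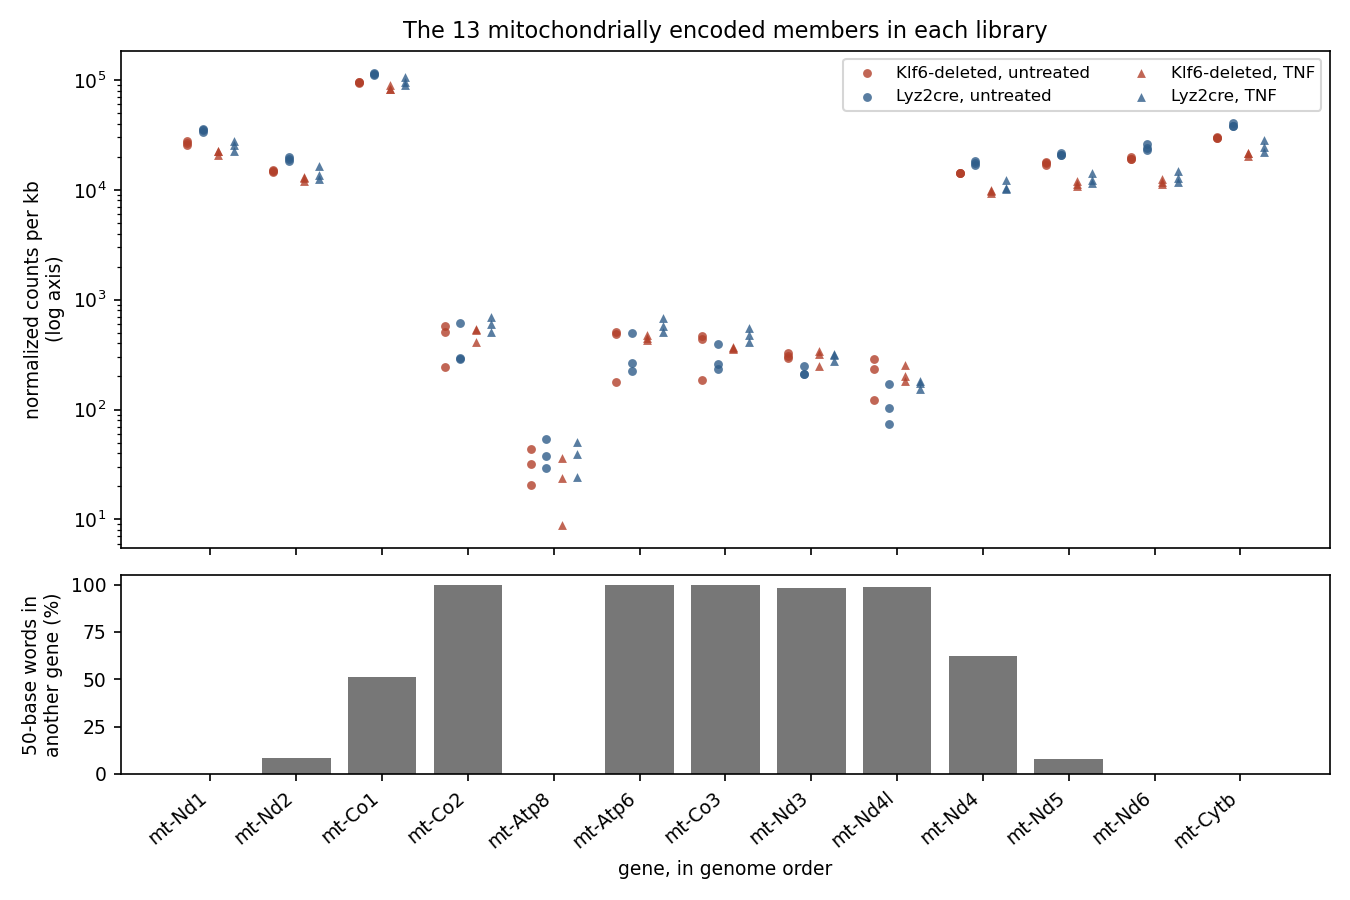
Upper panel: normalized counts per kilobase (log axis) of the 13 mitochondrially encoded members in genome order, 1 point per library, coloured by group; lower panel: percent of each member's 50-base words found in another annotated gene. The 5 members at 98.0% to 100% in the lower panel average 178 to 484 normalized counts per kilobase, against 13069 or more for the 7 own-sequence members; mt-Atp8 is low although none of its words was found elsewhere.

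In untreated cells all 7 own-sequence mitochondrial members were lower with Klf6 deleted. mt-Cytb, the cytochrome b subunit of complex III, was measured at 33918, 34620 and 33830 normalized counts in Klf6-deleted libraries and at 43731, 46161 and 43251 in Lyz2cre libraries. The groups did not overlap, and the mean was 1.30-fold lower (log2 change -0.38, SE 0.0348, adjusted p = 3.0e-08, limma). mt-Nd1, a core subunit of complex I, stood at 26546, 25361 and 24690 against 33365, 34100 and 32122 (log2 change -0.38, SE 0.0365, adjusted p = 5.5e-08, limma). Here too the genotypes did not overlap. mt-Co1 was measured at 147447, 145856 and 146702 normalized counts in Klf6-deleted cells and at 173854, 177386 and 171588 in Lyz2cre cells (log2 change -0.25, SE 0.0361, adjusted p = 1.0e-05, limma). The change of mt-Co1 was the smallest of the 7, with mt-Nd5 at -0.26, mt-Nd4 at -0.31, mt-Nd6 at -0.33 and mt-Nd2 at -0.36. mt-Nd6 is read from the strand opposite to the other 12 members, and its change lay within the range of theirs. In the same untreated libraries, marker genes of stromal cells took 0.411% of reads with Klf6 deleted against 0.0253% in Lyz2cre cells, and macrophage markers 0.787% against 1.23%. The part of other cell types in the mitochondrial values was not tested.

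Those 7 calls kept their direction and stayed called when libraries were scaled to total reads instead of the authors' size factors, with log2 changes from -0.25 to -0.12. The scaling matters here because it moves the median of all genes: the median log2 change over 12715 tested genes was -0.01 with the authors' size factors and 0.12 with total reads. Relative to that median, the own-sequence members had a median of -0.32 under both scalings. Of the 12 mitochondrially encoded members tested, 2 were higher and 7 lower, beside 56.9% of all tested genes called (27.6% higher and 29.3% lower). edgeR and DESeq2 also called 2 higher and 7 lower, beside 56.8% of all genes called by edgeR (28.8% higher and 28.0% lower). Non-overlapping values put 1 above and 7 below, beside 62.3% of all genes. The 2 called higher were copied members: mt-Nd3, at 113, 107 and 102 normalized counts in Klf6-deleted cells against 73.3, 72.6 and 86.4 in Lyz2cre cells, and mt-Nd4l. The call of mt-Nd3 (log2 change 0.47) ended without Klf6-deleted replicate 1 (0.43), and that of mt-Nd4l (0.88, groups overlapping) ended without Klf6-deleted replicate 2 (0.78) or 3 (0.63) or Lyz2cre replicate 1 (0.85) or 2 (0.61).

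For mt-Nd3 the genotypes also differed in where the reads were placed. Gm28438, its copy, was measured at 8.34, 21.9 and 18.7 normalized counts in untreated Klf6-deleted libraries and at 52.5, 84.7 and 63.4 in untreated Lyz2cre libraries (log2 change -2.04, SE 0.333, adjusted p = 3.7e-05, limma). With TNF it stood at 14.0, 10.9 and 8.75 in Klf6-deleted libraries against 58.7, 75.2 and 47.0 in Lyz2cre libraries (log2 change -2.32, SE 0.308, adjusted p = 7.5e-06, limma). The copy thus took 13.1% ± 5.48 of the pair's reads in untreated Klf6-deleted cells and 46.0% ± 6.82 in untreated Lyz2cre cells (SD, n = 3 each), and 9.88% ± 3.60 against 36.0% ± 5.64 with TNF. The untreated sum of gene and copy was 124 ± 4.21 normalized counts in Klf6-deleted cells and 144 ± 16.5 in Lyz2cre cells (SD, n = 3 each), with overlapping values, and with TNF it was 117 ± 14.0 and 166 ± 16.6, without overlap. mt-Nd4l, whose copy Gm10222 is identical over its 294 bases, showed a smaller shift in the same direction, with 47.3% ± 3.49 of the pair's reads on the copy against 67.5% ± 10.3 without TNF and 48.2% ± 3.02 against 62.6% ± 1.40 with TNF. Which base the reads of each genotype carry at the differing position was not analysed here, and the part of that base in the shift was not tested. The value of mt-Nd3 alone is therefore uncertain as a measure of the mitochondrial transcript.

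Taken as a ratio within each library, which no scaling between libraries can change, mitochondrial over nuclear member reads were lower with Klf6 deleted in untreated cells. The ratio was 2.67, 2.56 and 2.54 in Klf6-deleted libraries and 3.13, 3.14 and 3.07 in Lyz2cre libraries, which on the log2 scale is 1.37 ± 0.0399 against 1.64 ± 0.0179 (SD, n = 3 each). The groups did not overlap, and the log2 difference was -0.26 against a pooled SD of 0.0309. As the ratio is a sum over chosen members, it is given without a test. The mitochondrial members held 1.50% of all reads in Klf6-deleted cells and 1.67% in Lyz2cre cells, and the nuclear members 0.579% and 0.537%. In the authors' normalized counts the mitochondrial sum was 284174 against 347427, without overlap, while the nuclear sum was 109767 against 111669, with overlap. mt-Co1 made up 51.6% of the mitochondrial reads in Klf6-deleted cells and 50.2% in Lyz2cre cells.

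With TNF the ratios overlapped. They were 2.62, 2.61 and 3.06 in Klf6-deleted libraries and 2.54, 3.24 and 2.70 in Lyz2cre libraries, or 1.46 ± 0.130 against 1.49 ± 0.182 on the log2 scale (SD, n = 3 each). One library in each group stood high, Klf6-deleted replicate 3 and Lyz2cre replicate 2. The log2 difference of -0.03 was smaller than the pooled SD of 0.158, and it ran from -0.10 to 0.07 when libraries were left out one at a time, against -0.29 to -0.25 in untreated cells.

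**Figure D2:**
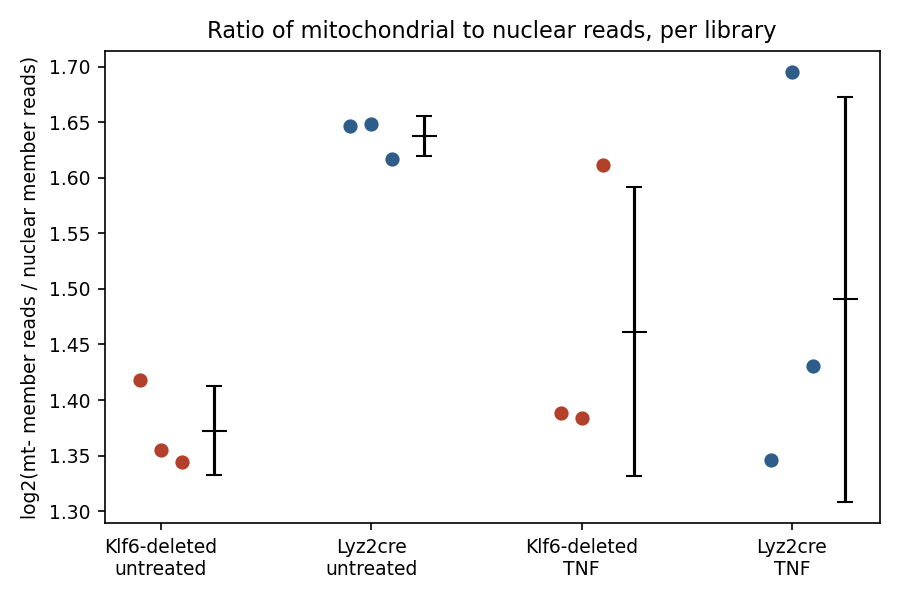
Log2 ratio of summed mitochondrial to summed nuclear member reads, 1 point per library with the mean and SD of each group. In untreated cells the Klf6-deleted libraries lie between 1.34 and 1.42 and the Lyz2cre libraries between 1.62 and 1.65; with TNF the groups overlap between 1.35 and 1.70.

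With TNF, 6 of 12 mitochondrially encoded members were called lower and 0 higher under the authors' scaling, beside 57.3% of 11717 tested genes called (26.5% higher and 30.8% lower). They were the own-sequence members mt-Cytb, mt-Nd1, mt-Co1 and mt-Nd4 and the copied members mt-Atp6 and mt-Co3. The copies of those last, Gm10925 and Gm28437, were lower too (log2 changes -0.46 and -0.40). At unadjusted p below 0.05 limma gave 10 of the 12, edgeR's quasi-likelihood test again called 6 lower and 0 higher (beside 57.2% of all genes, 29.3% higher and 28.0% lower), and DESeq2 5 and 0. Non-overlapping values put 1 above and 5 below, beside 63.2% of all genes. mt-Cytb stood at 24934, 23174 and 24658 normalized counts in Klf6-deleted cells and at 25147, 32585 and 28178 in Lyz2cre cells (log2 change -0.23, SE 0.0678, adjusted p = 0.0081, limma). Lyz2cre replicate 1 lay close to the Klf6-deleted libraries. Leaving out Klf6-deleted replicate 2 ended the calls of mt-Cytb (-0.20), mt-Nd1 (-0.17), mt-Co1 (-0.16) and mt-Nd4 (-0.15), and mt-Co1 was also lost without Klf6-deleted replicate 1 (-0.16), mt-Nd4 without Lyz2cre replicate 2 (-0.09) and mt-Atp6 without Lyz2cre replicate 2 (-0.25). DESeq2 did not call mt-Cytb (-0.22). The number called lower was 2 without Klf6-deleted replicate 2 and 10 without Lyz2cre replicate 1. Scaled to total reads the direction turned: 6 of 12 were higher and 0 lower, beside 60.1% of all genes higher and 14.6% lower, the 6 being mt-Co1 (0.15), mt-Nd2 (0.18), mt-Nd4 (0.16), mt-Nd4l (0.63), mt-Nd5 (0.18) and mt-Nd6 (0.18). mt-Cytb (0.10) and mt-Nd1 (0.12) were then on the positive side but not called. Total-read scaling moved the median of all genes to 0.32, against -0.01 with the authors' size factors, and relative to those medians the own-sequence members stood at -0.16 under both. The difference between the genotype changes with and without TNF was called for 0 of 12 members by limma (3 at unadjusted p below 0.05), by edgeR (2) and by DESeq2 (1). Total-read scaling called it higher for the 7 own-sequence members (0.27 to 0.40), beside 41.8% of all genes. Without Lyz2cre TNF replicate 2, limma called 6 higher, and without untreated Klf6-deleted replicate 1 it called 3 lower.

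Among nuclear members changes were small in both conditions. The median size of the log2 change, whatever its sign, was 0.14 over 89 tested nuclear members without TNF, against 0.25 over all genes, and 0.13 over 86 with TNF, against 0.30. A called change of at least 2-fold was seen for 2 members without TNF (Cox4i2 and Ndufa4l2), beside 13.8% of all genes, and for 1 with TNF (Ndufaf7), beside 15.1%. Cox4i2 and Ndufa4l2 had enough reads to be tested only through the Klf6-deleted libraries, where they are high. Under the authors' scaling 14 nuclear members were higher and 20 lower in untreated Klf6-deleted cells, beside 56.9% of all tested genes called (27.6% higher and 29.3% lower), and 46 higher and 5 lower with total reads, beside 59.2% (40.3% and 18.9%). With TNF 2 were higher and 24 lower of 86, beside 57.3% (26.5% and 30.8%), and 47 higher and 3 lower with total reads, beside 74.7% (60.1% and 14.6%). Under the authors' scaling the share of members called was below the share of all genes in both directions and both conditions. Relative to the median of all genes, the nuclear members' median was 0.03 in untreated cells and -0.11 with TNF, each the same under both scalings. The count higher in untreated cells was 8 without Klf6-deleted replicate 2, the count lower 13 without Lyz2cre replicate 2, and the count lower with TNF 12 without Klf6-deleted replicate 3. edgeR called 16 higher and 20 lower without TNF and 3 and 19 with TNF. Non-overlap gave 18 above and 22 below of 89 in untreated cells, beside 30.1% and 32.2% of all genes, and 3 above and 26 below of 86 with TNF, beside 29.9% and 33.3%.

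**Figure D3:**
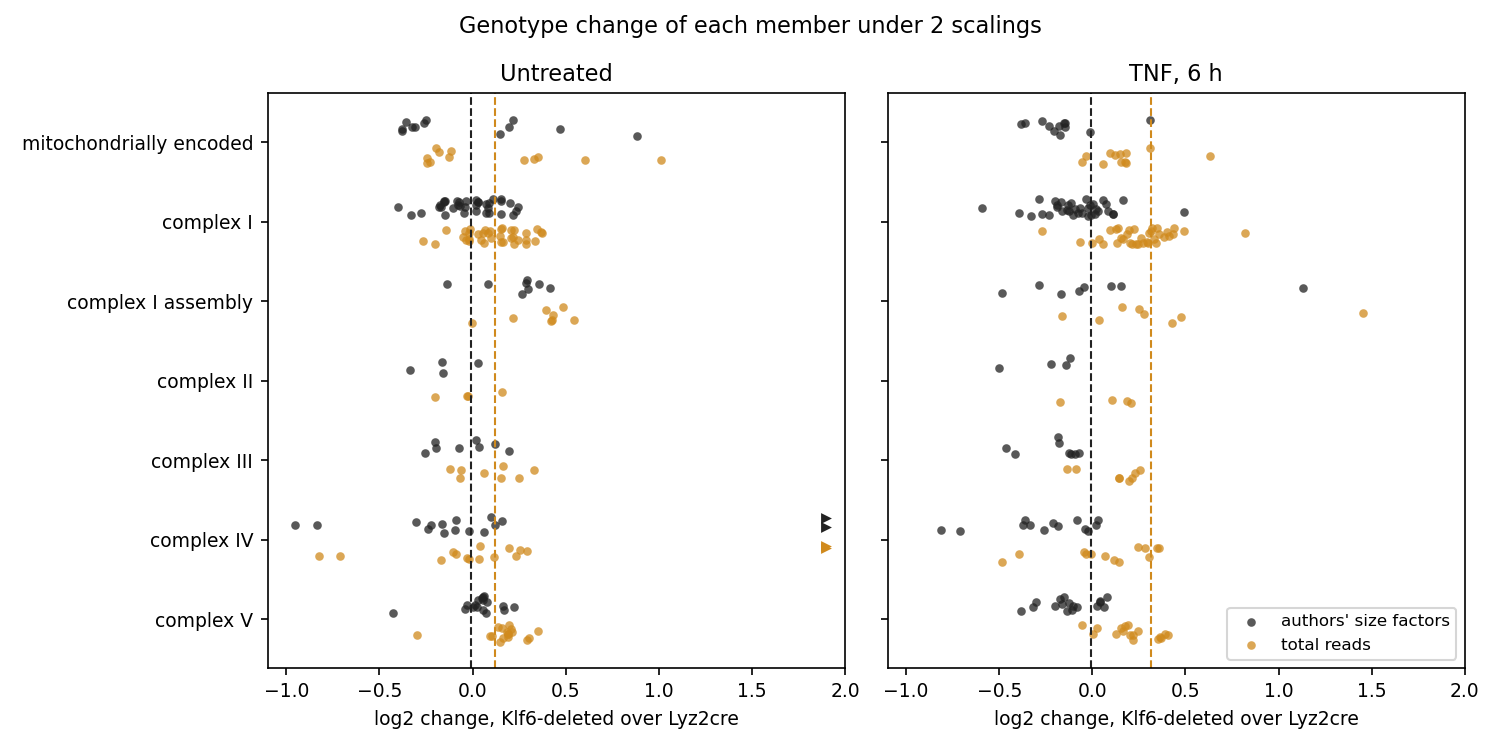
Log2 change, Klf6-deleted over Lyz2cre, of each tested member by complex, without TNF (left) and with TNF (right), under the authors' scaling and under total-read scaling; members beyond the axis are marked at its edge, and dashed lines give the median of all genes. Total-read scaling moves the points to the right, so that the nuclear median is 0.15 instead of 0.02 without TNF and 0.21 instead of -0.12 with TNF.

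Chromosome 13, which carries Klf6 (chr13:5861482-5870394, GRCm38), stood apart from the other chromosomes, and it holds 7 nuclear members. Of all genes tested on chromosome 13, 56.8% were lower with TNF against 29.8% elsewhere, and 42.1% against 28.8% without TNF. The median log2 change of its genes was -0.35 with TNF and -0.16 without, while the medians of the other 19 chromosomes lay between -0.03 and 0.08 and between -0.05 and 0.03. Among the members on it, 6 of 7 were lower with TNF (Cox7c, Sdha, Uqcrb, Uqcrfs1, Ndufs4 and Ndufaf2) and 4 of 7 without (the first 4 of these), none higher, and the seventh is Ndufs6. The TNF call of Ndufs4 (-0.40, groups overlapping) was lost with total reads (-0.07) and without Klf6-deleted replicate 3 (-0.20) or Lyz2cre replicate 1 (-0.31) or 3 (-0.34). That of Ndufaf2 (-0.49) was lost with total reads (-0.16), with TMM (-0.48), with edgeR (-0.42), with DESeq2 (-0.44) and without any 1 library except Klf6-deleted replicate 2, where it ran from -0.56 to -0.26. On other chromosomes 2 nuclear members were higher and 18 lower of 79 with TNF, and 14 higher and 16 lower of 82 without. With total reads the chromosome 13 median was -0.02 with TNF, against 0.33 for genes elsewhere. This comparison of chromosomes was made after the values were seen, and the part of the chromosome in each member's change was not tested.

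Complex I, which oxidises NADH, showed 4 members higher and 7 lower of 36 in untreated cells, beside 27.6% and 29.3% of all genes, and 1 higher and 6 lower of 36 with TNF, beside 26.5% and 30.8%. The balance turned with total reads, to 16 higher and 1 lower without TNF (beside 40.3% and 18.9%) and 21 and 1 with TNF (beside 60.1% and 14.6%). The same shares of all genes apply to the other complexes. Ndufa3, an accessory subunit of its membrane arm, was lower in both. It stood at 492, 503 and 471 normalized counts in untreated Klf6-deleted cells and at 584, 669 and 685 in untreated Lyz2cre cells (log2 change -0.40, SE 0.0726, adjusted p = 0.00012, limma). With TNF it was measured at 290, 304 and 228 in Klf6-deleted cells against 442, 353 and 445 in Lyz2cre cells (log2 change -0.59, SE 0.120, adjusted p = 0.00052, limma). No library of the genotypes overlapped in either condition, and the gene stayed lower with total reads (log2 change -0.27 in both). Ndufs8, a core subunit that holds iron-sulphur clusters, went the other way with TNF, at 550, 576 and 568 in Klf6-deleted cells against 429, 399 and 377 in Lyz2cre cells (log2 change 0.49, SE 0.0791, adjusted p = 5.9e-05, limma). Untreated, it overlapped between genotypes at 827, 763 and 759 against 820, 789 and 794.

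Assembly factors of complex I included the member with the largest called rise with TNF, but they did not rise as a set. With TNF, limma called Ndufaf2 (log2 change -0.49) and Ndufaf8 (-0.29) lower under the authors' scaling. The median of the 8 factors was -0.06, and the weakness of the Ndufaf2 call is given above. Ndufaf7, a methyltransferase that modifies a core subunit during assembly, was measured at 269, 277 and 270 normalized counts in Klf6-deleted cells given TNF and at 119, 120 and 132 in Lyz2cre cells given TNF. It was thus 2.19-fold higher (log2 change 1.13, SE 0.114, adjusted p = 3.3e-07, limma). In untreated cells it stood at 318, 310 and 284 against 247, 242 and 254 (log2 change 0.29, SE 0.0911, adjusted p = 0.011, limma), a call lost without Klf6-deleted replicate 1 (0.26). Ndufaf3 and Ndufaf4, which act together early in assembly, were also called higher in untreated cells (log2 changes 0.30 and 0.29), so that limma called 3 of 8 assembly factors higher and 0 lower (5 at unadjusted p below 0.05), edgeR 4 and 0, and DESeq2 3 and 0. Both calls depended on single libraries: Ndufaf3 was lost without Klf6-deleted replicate 2 (0.28) or 3 (0.26) or Lyz2cre replicate 1 (0.26), and Ndufaf4 without Klf6-deleted replicate 1 (0.25) or 2 (0.27) or Lyz2cre replicate 1 (0.24) or 2 (0.25). Total-read scaling called 6 of the 8 higher.

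Complex II joins the tricarboxylic acid cycle to the respiratory chain by oxidising succinate. Sdha, its flavoprotein subunit, was measured at 4098, 3980 and 4017 normalized counts in untreated Klf6-deleted cells and at 4981, 5145 and 5120 in untreated Lyz2cre cells (log2 change -0.33, SE 0.0353, adjusted p = 1.9e-07, limma). With TNF the values were 2828, 2742 and 2898 against 3974, 3855 and 4164, a 1.42-fold lower mean (log2 change -0.50, SE 0.0463, adjusted p = 1.1e-07, limma). Groups were apart in both conditions, and total reads left Sdha lower (log2 changes -0.20 and -0.17). Of the 4 members, 3 were lower without TNF (Sdha, Sdhb and Sdhd) and 2 with TNF (Sdha and Sdhc), and 0 were higher in either by limma, which gave 3 and 2 at unadjusted p below 0.05, and edgeR and DESeq2 made the same counts. Total-read scaling called 1 higher and 1 lower without TNF and 2 and 1 with TNF, and ended the calls of Sdhb (-0.03) and Sdhd (-0.02) without TNF and of Sdhc (0.10) with TNF. The call of Sdhb (-0.17) was also lost without Klf6-deleted replicate 1 (-0.11) or Lyz2cre replicate 2 (-0.14) or 3 (-0.16), and that of Sdhd (-0.16) without Klf6-deleted replicate 1 (-0.13) or 2 (-0.15) or Lyz2cre replicate 2 (-0.12). Sdha lies on chromosome 13.

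Complex III passes electrons from coenzyme Q to cytochrome c. Uqcrfs1, the Rieske iron-sulphur protein, stood at 1168, 1135 and 1244 normalized counts in untreated Klf6-deleted cells and at 1273, 1427 and 1358 in untreated Lyz2cre cells (log2 change -0.19, SE 0.0545, adjusted p = 0.0054, limma). With TNF it was measured at 893, 896 and 911 against 1234, 1177 and 1184 (log2 change -0.41, SE 0.0565, adjusted p = 1.1e-05, limma). Uqcrb, which helps hold the quinone site, was at 587, 504 and 555 in Klf6-deleted cells given TNF and at 712, 823 and 735 in Lyz2cre cells given TNF (log2 change -0.46, SE 0.0798, adjusted p = 0.00012, limma). Neither gene overlapped between the genotypes. Both lie on chromosome 13, and with total reads neither was called (log2 changes with TNF of -0.09 and -0.14). In all, 1 of 8 members was higher and 3 lower without TNF, and 0 higher and 3 lower with TNF by limma (4 at unadjusted p below 0.05), edgeR and DESeq2. Scaled to total reads, 3 were higher and 0 lower in each condition.

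Complex IV, cytochrome c oxidase, had 3 members higher and 7 lower of 16 in untreated cells and 0 higher and 7 lower of 13 with TNF by limma (8 at unadjusted p below 0.05). edgeR called 0 and 8 with TNF, and DESeq2 0 and 7. Here too total reads turned the balance, to 7 higher and 3 lower without TNF and 6 higher and 1 lower with TNF. Cox7c, a small structural subunit, had the largest fall among the nuclear members with TNF. It was measured at 799, 610 and 464 normalized counts in Klf6-deleted cells against 1024, 1032 and 1157 in Lyz2cre cells (1.75-fold lower, log2 change -0.81, SE 0.133, adjusted p = 7.3e-05, limma). The Klf6-deleted libraries spread widely but all lay below the others, and total reads left the gene lower (-0.48). Untreated, it stood at 1266, 1309 and 1200 against 1357, 1573 and 1478 (log2 change -0.22, SE 0.0564, adjusted p = 0.0026, limma). Cox7c too lies on chromosome 13. Cox5a, on chromosome 9, was lower in both conditions: 875, 833 and 1008 against 1114, 1156 and 1073 without TNF (log2 change -0.30, SE 0.0651, adjusted p = 0.00062, limma) and 1018, 971 and 860 against 1240, 1094 and 1328 with TNF (-0.36, SE 0.0779, adjusted p = 0.00089, limma), Klf6-deleted cells first. With total reads Cox5a stayed lower without TNF (-0.17) and was not called with TNF (-0.03). Cox7a2l, a factor that joins complexes III and IV into supercomplexes, stood at 2957, 3131 and 3067 in untreated Klf6-deleted cells and at 3593, 3660 and 3542 in untreated Lyz2cre cells (log2 change -0.24, SE 0.0383, adjusted p = 3.3e-05, limma). With TNF its call (-0.18) ended without Klf6-deleted replicate 3 (-0.13), and with total reads it was called higher (0.14).

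Complex V had 3 members higher and 0 lower of 17 in untreated cells by limma (4 at unadjusted p below 0.05) and 0 higher and 4 lower with TNF (7 at unadjusted p below 0.05). edgeR called 3 and 0 without TNF and 0 and 2 with TNF, and DESeq2 2 and 0 and 0 and 2. Under total-read scaling 13 were higher and 0 lower without TNF and 12 and 0 with TNF, so the TNF direction turned. Atp5b, the catalytic beta subunit, was measured at 8456, 8301 and 7806 normalized counts in Klf6-deleted cells given TNF and at 10084, 10092 and 10147 in Lyz2cre cells given TNF (log2 change -0.30, SE 0.0411, adjusted p = 9.3e-06, limma). Its values without TNF were 8882, 8915 and 9009 against 8481, 8685 and 8539, not called (log2 change 0.06, adjusted p = 0.12, limma). With total reads the TNF change of Atp5b was 0.02. Atp5g1, which encodes the ring subunit c, was higher in untreated cells, at 928, 939 and 927 against 750, 835 and 816 (log2 change 0.22, SE 0.0572, adjusted p = 0.0030, limma), while Atp5g2 and Atp5g3, which encode the same mature protein, were not called (-0.03 and 0.07). Atpif1, the ATP synthase inhibitor, lies outside the symbol rule. It stood at 507, 486 and 427 in Klf6-deleted cells against 797, 769 and 899 in Lyz2cre cells with TNF, and at 821, 843 and 900 against 1356, 1387 and 1330 without (log2 changes -0.79 and -0.67, SE 0.0838 and 0.0525).

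Per kilobase, the most abundant nuclear members were Cox6a1 (3771 normalized counts per kilobase over all libraries), Cox8a (3553), Atp5a1 (2779), Cox4i1 (2558), Cox6b1 (2311) and Atp5b (2112). Median levels by complex ran from 65.6 per kilobase for complex I assembly factors to 851 for complex III. The length used is that of all annotated exons of a gene together, which can far exceed that of 1 transcript. For Atp5b it is 4237 bases, against 1916 bases in its longest protein-coding transcript. The order of genes and complexes can therefore depend on this choice of length. Cox4i1, the ubiquitous form of subunit 4, was slightly lower in untreated Klf6-deleted cells, at 4214, 4342 and 4451 against 4666, 5002 and 4904 normalized counts (log2 change -0.16, SE 0.0385, adjusted p = 0.0014, limma), and not called with total reads (-0.03).

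The nuclear members with changes far outside the rest were paralogues that replace a ubiquitous subunit in particular tissues. Ndufa4l2, a hypoxia-induced relative of Ndufa4, was measured at 185, 177 and 233 normalized counts in untreated Klf6-deleted cells and at 5.47, 3.63 and 8.75 in untreated Lyz2cre cells (log2 change 4.90, SE 0.290, adjusted p = 6.6e-11, limma). With TNF it stood at 6.54, 10.9 and 4.86 in Klf6-deleted cells and at 0 in all 3 Lyz2cre libraries, and it was not tested there. Cox4i2, the form of subunit 4 found in lung and in pericytes and tuned to low oxygen, was at 45.0, 40.9 and 73.1 against 4.38, 2.42 and 3.28 in untreated cells (log2 change 3.61, SE 0.408, adjusted p = 4.6e-07, limma). With TNF its values were 3.74, 3.63 and 2.92 against 0.995, 2.06 and 0, below the level tested. The ubiquitous partners were not called higher: Ndufa4 stood at 1109, 1165 and 1126 against 1090, 1128 and 960 in untreated cells (log2 change 0.10, adjusted p = 0.16, limma).

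Markers of stromal cells moved with these paralogues. The 18 stromal markers, such as collagens and Pdgfrb, together took 0.401% to 0.427% of reads in untreated Klf6-deleted libraries and 0.0227% to 0.0268% in untreated Lyz2cre libraries. All 16 of them tested were higher by limma and edgeR, and 15 by DESeq2, beside 27.6% of all genes higher by limma. With TNF they took 0.0396% to 0.0462% against 0.00750% to 0.00920%. Of 13 tested, 11 were then higher and 1 lower, beside 26.5% and 30.8% of all genes. A marker could reach the level tested through the Klf6-deleted libraries alone, so neither count measures how often stromal markers changed. The summed shares of reads cover all 18 markers and do not depend on that filter. None of the 18 was at 0 in all libraries of any group. Pericyte markers, a list added after the values were seen, took 0.00805% against 0.00075% without TNF and 0.00138% against 0.000604% with TNF, and with TNF 5 of the 9 (Rgs5, Kcnj8, Abcc9, Des and Higd1b) were at 0 in every Lyz2cre library. The 10 macrophage markers took 0.787% in untreated Klf6-deleted cells against 1.23% in untreated Lyz2cre cells, and 1.05% against 1.12% with TNF. The part of other cell types in the values of Ndufa4l2 and Cox4i2 was not tested, and in bulk RNA more cells of a type and more RNA per cell cannot be told apart. Monocyte and granulocyte progenitor markers took 0.0615% against 0.0381% without TNF and 0.0124% against 0.0118% with TNF. Endothelial markers took 0.00977% against 0.00426% and 0.00733% against 0.0113%, with Cldn5 at 0 in all libraries given TNF, and Emcn in the Lyz2cre ones.

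**Figure D4:**
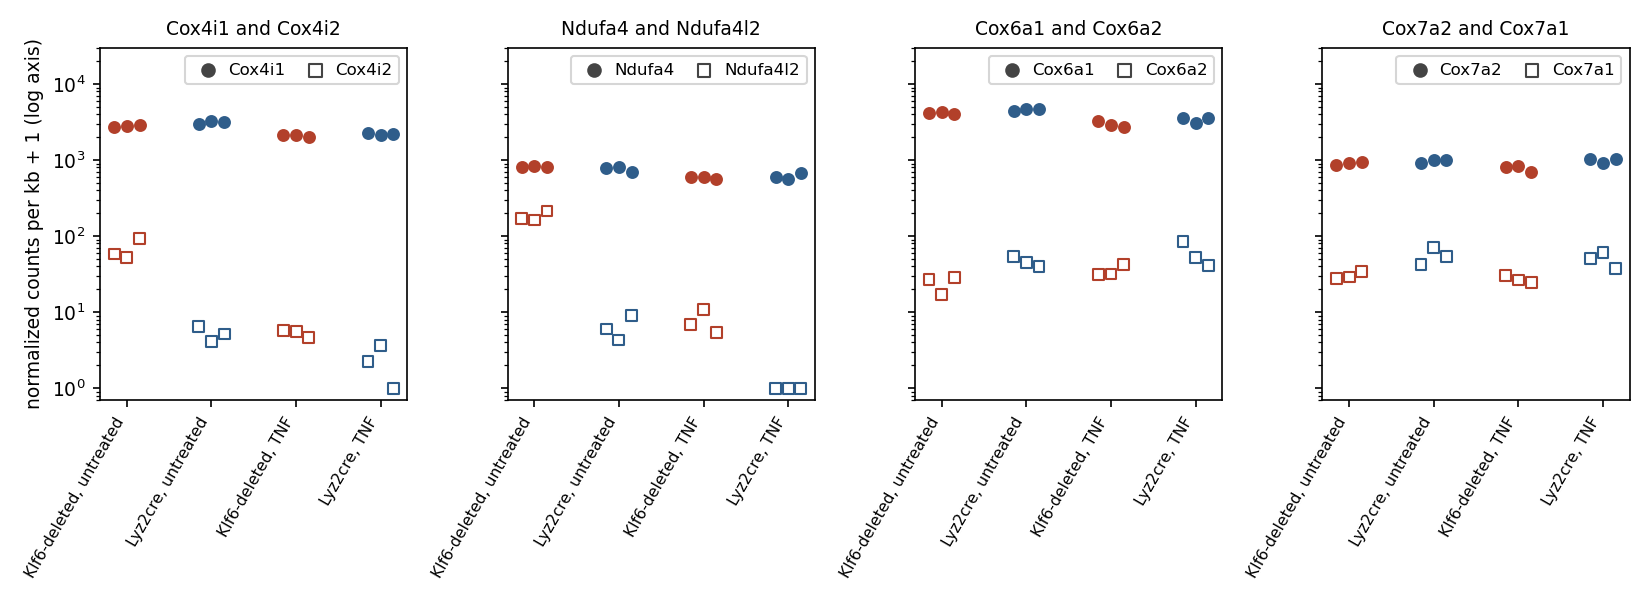
Normalized counts per kilobase plus 1 (log axis) of ubiquitous subunits and their paralogues, 1 point per library, in the 4 groups. Ndufa4l2 and Cox4i2 stand far higher in the untreated Klf6-deleted libraries (177 to 233 and 40.9 to 73.1 normalized counts) than in the untreated Lyz2cre libraries (3.63 to 8.75 and 2.42 to 4.38).

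Muscle-type paralogues of complex IV were low, and both tested in untreated cells, Cox6a2 and Cox7a1, were called lower with Klf6 deleted. Each averaged 0.83 CPM (reads scaled to a common library total) in untreated Klf6-deleted cells, below the filter of 1 CPM. In untreated Lyz2cre cells Cox6a2 averaged 1.49 CPM and Cox7a1 1.41 CPM. Both thus had enough reads to be tested through the Lyz2cre libraries, so their shared direction is no measure of how such paralogues changed. Cox6a2, the heart and muscle form of subunit 6a, was measured at 17.5, 11.0 and 18.7 normalized counts in untreated Klf6-deleted cells against 36.1, 30.3 and 26.3 in untreated Lyz2cre cells (log2 change -0.95, SE 0.331, adjusted p = 0.020, limma). This call ended without Klf6-deleted replicate 2 (-0.73) or Lyz2cre replicate 1 (-0.84). Cox7a1, the muscle form of subunit 7a, averaged 15.7 ± 1.94 normalized counts against 29.3 ± 7.86 (SD, n = 3 each, no overlap; log2 change -0.84, adjusted p = 0.039, limma), and was not called with total reads (-0.71), by DESeq2 (-0.88) or without Klf6-deleted replicate 1 (-0.77) or 2 (-0.81) or Lyz2cre replicate 2 (-0.65) or 3 (-0.84). Cox6b2 and Cox8b held at most 7.26 normalized counts in any library and were not tested.

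The genotype changes with and without TNF were then set against each other in 1 fit over all 12 libraries. Of 86 nuclear members, 2 had a genotype change that was higher with TNF and 20 one that was lower, beside 52.2% of 11425 tested genes called (26.5% higher and 25.7% lower). edgeR called 2 and 25, beside 52.8% (24.7% and 28.1%). With total reads the counts were 20 and 3, beside 58.4% (41.8% and 16.6%), and relative to the median of all genes the members' median was -0.16 under both scalings. The count of lower calls was 11 without untreated Klf6-deleted replicate 2, 13 without untreated Klf6-deleted replicate 3 or untreated Lyz2cre replicate 1, and 12 without Klf6-deleted TNF replicate 3 or Lyz2cre TNF replicate 3. The count of higher calls was 6 without Klf6-deleted TNF replicate 3 and 4 without untreated Lyz2cre replicate 3. Ndufaf7 (difference 0.84, SE 0.135, adjusted p = 2.9e-05, limma) and Ndufs8 (0.53, SE 0.0925, adjusted p = 8.2e-05, limma) were the higher ones under both scalings. Among the lower ones Ndufa11 (-0.48), Cox6c (-0.44) and Atp5b (-0.37) were called under both scalings, while the other named ones were lost with total reads. Ndufa11, a membrane-arm subunit of complex I, was the 1 member called in opposite directions, at 531, 543 and 565 against 468, 460 and 456 normalized counts without TNF (log2 change 0.24) and 489, 453 and 437 against 531, 503 and 589 with TNF (-0.23). The TNF call of Ndufa11 was lost with edgeR (-0.20), DESeq2 (-0.21) and without Klf6-deleted replicate 2 (-0.22) or 3 (-0.20) or Lyz2cre replicate 3 (-0.17), and its direction turned with total reads (0.09). Of 10 nuclear members called in both conditions, 8 were lower in both and 1 higher in both. Of all tested genes, 56.9% were called without TNF and 57.3% with TNF, and the share called in both is not given here. The count is therefore no measure of agreement between the conditions. Sdha, Uqcrb, Uqcrfs1 and Cox7c, among those 8, lie on chromosome 13.

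**Figure D5:**
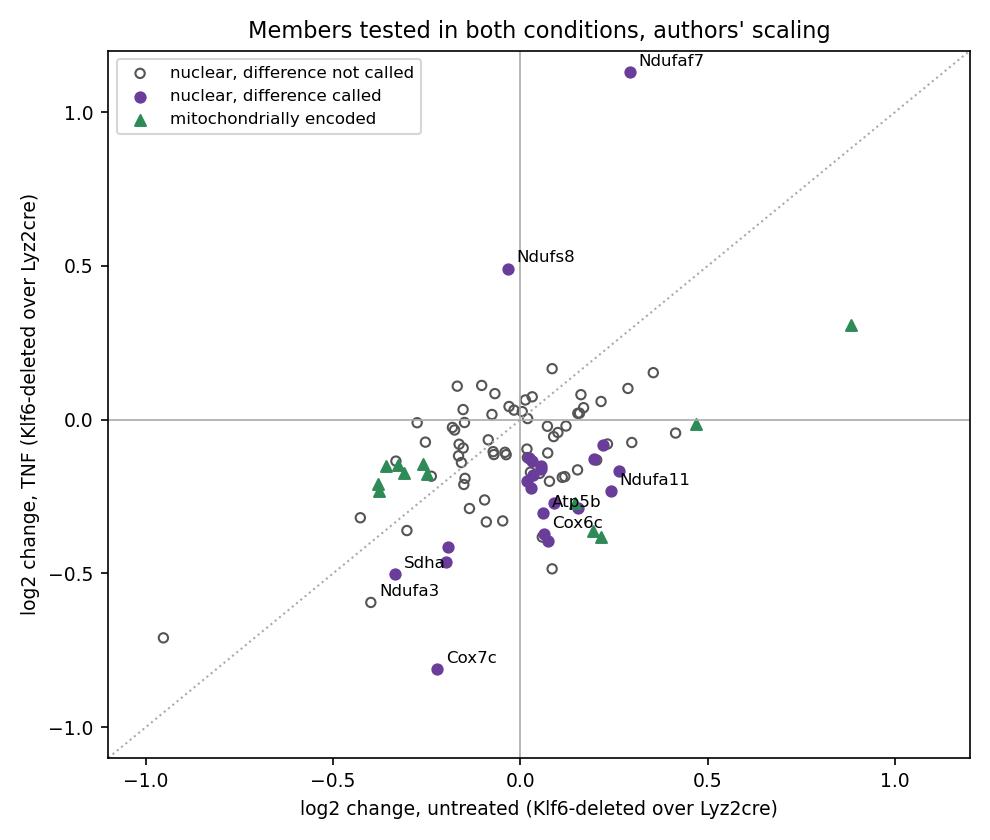
Log2 change with TNF (vertical) against log2 change without TNF (horizontal), Klf6-deleted over Lyz2cre, authors' scaling; filled points are nuclear members whose difference between conditions was called, open points other nuclear members, triangles mitochondrially encoded members. Ndufaf7 (0.29 and 1.13) and Ndufs8 (-0.03 and 0.49) lie above the diagonal and Cox7c (-0.22 and -0.81) below it.

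TNF itself was compared across tables that were normalized separately, so levels are given without a test. In CPM (reads scaled to a common library total), the nuclear members' median log2 ratio of TNF over untreated was -0.20 in Klf6-deleted cells and -0.32 in Lyz2cre cells, beside -0.05 and -0.24 for all genes. The scaling decides these values: with TMM factors over all 12 libraries the medians were -0.11 and 0.0035 for nuclear members and 0.10 and 0.0077 for all mitochondrially encoded ones. All TNF libraries lay below all untreated ones for 45 of 85 nuclear members in Klf6-deleted cells (52.9%, beside 39.0% of all genes) and for 58 of 87 in Lyz2cre cells (66.7%, beside 52.8%). In CPM the own-sequence mitochondrial members had medians of -0.29 in Klf6-deleted cells and -0.62 in Lyz2cre cells. The 5 copied members had medians of 0.21 and 0.60, and all 12 together 0.014 and -0.31. The TMM medians above, taken over all 12, thus mix sets that differ in sign in CPM. mt-Nd6 stood at 373 CPM with TNF in Klf6-deleted cells, against 530 untreated, and at 330 with TNF in Lyz2cre cells, against 608 untreated. mt-Co1 differed less, at 8024 with TNF against 7739 untreated in Klf6-deleted cells and 7251 with TNF against 8386 untreated in Lyz2cre cells. Its share of the mitochondrial reads was 56.9% with TNF against 51.6% untreated in Klf6-deleted cells and 56.8% against 50.2% in Lyz2cre cells, without overlap in either genotype. Ndufaf7 stood at 16.5 CPM with TNF and 16.0 untreated in Klf6-deleted cells, with overlapping libraries, and at 6.00 with TNF and 11.9 untreated in Lyz2cre cells, without overlap.

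Genes that assemble, supply or regulate these complexes were counted from lists, under the authors' scaling unless stated, where 27.6% of all genes were higher and 29.3% lower without TNF and 26.5% and 30.8% with TNF. With total reads those shares were 40.3% and 18.9% and 60.1% and 14.6%, and most list counts moved towards higher, so the balance of a list depends on the scaling. Among 4 complex III and IV genes outside the symbol rule, 3 were higher and 1 lower without TNF and 0 higher and 2 lower with TNF by limma (2 at unadjusted p below 0.05), edgeR and DESeq2 (2 and 1 with total reads). Cycs, the electron carrier cytochrome c, was measured at 995, 971 and 938 normalized counts in Klf6-deleted cells given TNF and at 1714, 1526 and 1720 in Lyz2cre cells given TNF (log2 change -0.77, SE 0.0608, adjusted p = 1.6e-08, limma). Untreated, the order was the other way round, at 796, 885 and 852 against 576, 571 and 575 (log2 change 0.55, SE 0.0610, adjusted p = 3.25e-07, limma), and the difference between the conditions was called (-1.32, adjusted p = 6.5e-11, limma). Of 19 complex IV assembly genes tested, 3 were higher and 1 lower without TNF and 1 higher and 9 lower with TNF (4 and 2 with total reads). Coa5, one of them, stood at 2925, 3130 and 2722 with TNF in Klf6-deleted cells against 6722, 6225 and 6901 in Lyz2cre cells (log2 change -1.18, SE 0.0547, adjusted p = 1.9e-11, limma). Of 11 complex I assembly genes outside the rule, 2 were higher and 1 lower without TNF and 3 higher and 2 lower with TNF (4 and 1, and 8 and 1, with total reads). Of 5 complex III assembly genes, 1 was higher and 1 lower without TNF, and 2 were higher and 0 lower with TNF by limma (2 at unadjusted p below 0.05), edgeR and DESeq2 (2 and 1, and 5 and 0, with total reads). Of 4 complex II assembly genes, 0 were higher and 1 lower without TNF, and none was called with TNF by limma (0 at unadjusted p below 0.05), edgeR or DESeq2 (1 and 0, and 2 and 0, with total reads). Of 4 complex V assembly genes none was called in either condition by limma (0 at unadjusted p below 0.05), edgeR (0 without and 1 with TNF) or DESeq2 (0), while total-read scaling called 2 higher without and 3 with TNF.

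Genes of mitochondrial RNA and DNA upkeep were mixed. For mitochondrial RNA stability and processing, 5 of 18 were higher and 3 lower without TNF, and 2 higher and 6 lower with TNF, a balance that total reads turned to 9 and 0 and to 11 and 1. Pnpt1, the mitochondrial polynucleotide phosphorylase that degrades RNA, was measured at 606, 672 and 635 normalized counts in Klf6-deleted cells given TNF against 2062, 1865 and 2217 in Lyz2cre cells given TNF (log2 change -1.68, SE 0.0687, adjusted p = 3.5e-12, limma), without overlap. For mitochondrial DNA maintenance and transcription the counts were 3 and 3 of 17 without TNF and 6 and 2 with TNF (5 and 2, and 10 and 0, with total reads). Twnk, the mitochondrial DNA helicase, stood at 213, 211 and 215 against 111, 98.8 and 117 with TNF (log2 change 0.96, SE 0.127, adjusted p = 7.3e-06, limma). Both mitochondrial ribosomal RNAs were lower with TNF and 1 of 2 without: mt-Rnr1 was at 1926, 2420 and 2488 in Klf6-deleted cells against 5893, 5196 and 6164 in Lyz2cre cells with TNF (log2 change -1.34, SE 0.0816, adjusted p = 5.7e-10, limma). Ribosomal RNA was removed during library preparation, so those values depend on how well it was removed, and the part of that step was not tested. Among nuclear regulators, 3 of 11 were higher and 3 lower without TNF, and 1 higher and 6 lower with TNF (3 and 1, and 5 and 2, with total reads). Perm1, a regulator that acts with PGC-1 coactivators, was at 218, 240 and 259 against 883, 681 and 774 with TNF (log2 change -1.70, SE 0.101, adjusted p = 4.6e-10, limma). Myc was at 121, 91.8 and 119 against 172, 230 and 210 with TNF (log2 change -0.88, adjusted p = 0.00013, limma) and at 378, 366 and 342 against 204, 206 and 189 without (0.86, adjusted p = 2.6e-07, limma). Unlike the list counts, the values given for Pnpt1, Twnk, mt-Rnr1, Perm1 and Myc stayed called in the same direction with total reads.

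In metabolic neighbours, 3 of 18 tricarboxylic acid cycle genes were higher and 3 lower without TNF, and 3 higher and 6 lower with TNF, and total reads turned these to 10 and 1 and to 12 and 0. Fh1, fumarate hydratase, stood at 649, 646 and 736 normalized counts in untreated Klf6-deleted cells against 1255, 1391 and 1258 in untreated Lyz2cre cells (log2 change -0.94, SE 0.0632, adjusted p = 3.8e-10, limma), and was not called with TNF. For coenzyme Q synthesis the counts were 1 and 1 of 13 without TNF and 3 and 2 with TNF (5 and 1, and 9 and 1, with total reads). Coq8a, which regulates that synthesis, was at 260, 326 and 298 against 79.6, 110 and 119 with TNF (log2 change 1.52, SE 0.154, adjusted p = 3.2e-07, limma). Without TNF Coq8a was lower with Klf6 deleted, with log2 changes from -0.86 to -0.79 when libraries were left out one at a time. Of 12 uncoupling and carrier genes, 4 were higher and 3 lower without TNF, and 1 higher and 5 lower with TNF (6 and 2 in both with total reads). Ucp2, a carrier of the inner membrane abundant in macrophages, was lower in both conditions (log2 changes -0.73 without TNF and -0.92 with TNF, SE 0.0351 and 0.0407). Bnip3, a hypoxia-induced mitophagy receptor, was higher in both conditions (1.02 and 0.84, SE 0.0581 and 0.0523).

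Promoters (250 bases before to 50 after the start, RefSeq, GRCm38.p6) were at hand for 73 of the 91 nuclear members. The NRF1 motif (GCGCA, any base, then GCGC, on both strands like the other motifs) was present in 19 of them (26.0%). It was present in 5.19% of all 27025 genes with a promoter at hand, whether or not they were tested here. Among members it was present in 4 of 17 lower without TNF and 5 of 18 lower with TNF. The ETS motif CCGGAAG was present in 24.7% against 9.93%, the YY1 motif AAGATGGC in 13.7% against 3.19% and the GC box GGGCGGG in 34.2% against 27.9%. Sdha and Cox7c, the 2 members on chromosome 13 that stayed lower with total reads under TNF, are shown (minus strand, 5′ to 3′, NRF1 matches in capitals): Sdha at chr13:74350191-74350490 holds 3 matches and Cox7c at chr13:86046746-86047045 none.
Sdha: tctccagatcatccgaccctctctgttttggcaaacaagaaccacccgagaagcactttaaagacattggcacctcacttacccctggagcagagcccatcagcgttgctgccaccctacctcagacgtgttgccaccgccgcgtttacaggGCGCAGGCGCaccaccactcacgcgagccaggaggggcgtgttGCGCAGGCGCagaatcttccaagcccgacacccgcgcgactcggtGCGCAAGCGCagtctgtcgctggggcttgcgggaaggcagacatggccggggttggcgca
Cox7c: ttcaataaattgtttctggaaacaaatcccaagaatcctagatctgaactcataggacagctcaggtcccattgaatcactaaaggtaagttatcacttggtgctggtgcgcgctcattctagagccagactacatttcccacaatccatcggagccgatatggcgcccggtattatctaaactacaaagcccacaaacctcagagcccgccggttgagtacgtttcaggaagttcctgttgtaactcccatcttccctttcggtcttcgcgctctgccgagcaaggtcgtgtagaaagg
A match describes these letters only and is no measure of binding.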

How the data were processed

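One deposited table holds the untreated and another the TNF-treated libraries, each with a normalized signal value for every gene. Libraries were built from 150 ng of total RNA after ribosomal RNA removal, with a strand-preserving kit, per the labels' protocols. The submitters' processing notes name Cufflinks, GRCm39 and mm10 without saying what each was used for. The sources used here do not give the aligner, counter, strand use or annotation. The unit was read from the values: each deposited signal value was a whole number of reads divided by 1 size factor per library (100% within 0.001 reads).

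Genes with at least 1 CPM in 3 libraries were tested with limma 3.58.1 (R 4.3.3) on log2(value + 1) with a mean-variance trend, within each table, with Benjamini-Hochberg adjustment over all tested genes and a threshold of 0.05. Fold changes are on that log2 scale. The interaction used all 12 libraries. On the recovered reads, edgeR 4.0.16 called 7219 genes without and 6707 with TNF. DESeq2 1.42.0, TMM, total reads, other filters, a pseudocount of 10, a replicate block and leaving out each library were alternatives. The scripts were tested on simulated data. Symbols were paired with 22867 and 21411 identifiers.

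Named genes followed a rule: Klf6, all mitochondrial members, fixed paralogue pairs, the 6 highest and 6 lowest called folds per comparison, the 6 lowest interaction p-values, the 6 most abundant and up to 3 per list. Members and lists were chosen with earlier results of these data known. Some results on single genes, and the count of the mitophagy list, are not reported here.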

Additional observations from a re-analysis of the deposited data

Results flagged for a closer look

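The genotype change differed between TNF-treated and untreated cells for 14 of the nuclear members named here, for Cycs and for Klf6, by the limma interaction test over all 12 libraries (adjusted p below 0.05). The same test called 52.2% of 11425 tested genes. As 6 of the named members were picked by their low interaction p-values, the 14 are a list and no measure of how often members differ. Values are the log2 change with TNF minus the log2 change without. They were positive for Ndufaf7 (0.84) and Ndufs8 (0.53). Negative differences were found for Cox7c (-0.59), Ndufa11 (-0.48), Ndufs4 (-0.47), Cox6c (-0.44), Atp5b (-0.37), Ndufa10 (-0.36), Atp5g1 (-0.30), Uqcrb (-0.26), Sdhc (-0.25), Uqcrfs1 (-0.22), Atp5a1 (-0.21) and Sdha (-0.17). The value was -1.32 for Cycs and -0.33 for Klf6.

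With total reads the calls of Cox7c (-0.39), Ndufs4 (-0.27), Ndufa10 (-0.17), Atp5g1 (-0.11), Uqcrb (-0.07), Sdhc (-0.06), Uqcrfs1 (-0.02), Atp5a1 (-0.01) and Sdha (0.03, the other sign) ended. The calls of Ndufaf7, Ndufs8, Ndufa11, Cox6c and Atp5b held under that scaling. Leaving out single libraries ended the call of Ndufs4 for 8 of the 12, that of Atp5g1 for 5, that of Uqcrb for 4 and that of Uqcrfs1 for 3.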

How the results depend on the processing

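Scaling decided most directions with TNF. With total reads (and with total reads without mitochondrial genes, where different, in parentheses) the nuclear members higher and lower were 46 and 5, with a median log2 change of 0.15, without TNF; 47 (48) and 3, median 0.21, with TNF; and 20 (21) and 3, median 0.052 (0.056), for the difference between the conditions. Mitochondrial members had a median of -0.12 without TNF, were 6 higher and 0 lower with a median of 0.15 with TNF, and 7 higher with a median of 0.29 for the difference. Among the genes named here, signs turned with TNF for mt-Co1 (0.15), mt-Cytb (0.10), mt-Nd1 (0.12), mt-Nd4 (0.16), Ndufa10 (0.055; 0.056), Ndufa11 (0.094; 0.096), Sdhc (0.10; 0.11), Cox6a1 (0.12), Cox6b1 (0.066; 0.068), Cox7a2l (0.14), Atp5a1 (0.18) and Atp5b (0.023; 0.024), and for the difference of Sdha (0.027; 0.031). TMM and size factors over protein-coding genes left every count within 1.5 times. A threshold of 0.01 gave 5 higher and 11 lower nuclear members and 0 higher mitochondrial ones without TNF, 12 lower with TNF and 7 lower for the difference. One fit over 12 libraries gave 5 higher and 13 lower nuclear members without TNF, and a filter of 5 CPM 1 higher mitochondrial member. The 7 own-sequence members alone had 0 higher and a median of -0.33 without TNF. The log2 difference of the ratio without TNF was -0.30 without the most abundant members and -0.12, with overlapping groups, as a difference of mean log2.

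Leaving out libraries one at a time gave, without TNF, 8 to 13 nuclear members higher, 13 to 21 lower and 1 to 4 mitochondrial members higher; with TNF, 12 to 28 nuclear members and 2 to 10 mitochondrial members lower; and for the difference, 2 to 6 nuclear members higher, 11 to 28 lower, and 0 to 6 mitochondrial members higher and 0 to 3 lower. The TNF response of nuclear members in Klf6-deleted cells was -0.41 with the authors' factors, -0.20 in CPM and -0.11 with TMM over 12 libraries, and that of mitochondrial members -0.19, 0.014 and 0.10; in Lyz2cre cells TMM gave 0.0035 for nuclear and 0.0077 for mitochondrial members. Deviations of same-numbered libraries from their group means had correlations of 0.152, -0.0378 and 0.158 without TNF and -0.0209, -0.0123 and -0.0295 with TNF. Pairs with different numbers ran from -0.230 to 0.114 without TNF and from -0.0015 to 0.0224 with TNF. Without TNF the values 0.152 and 0.158 thus lay above all pairs with different numbers, and whether libraries were paired is not settled. The replicate block called 15 nuclear members higher and 20 lower without TNF, 2 and 24 with TNF, and 2 and 17 for the difference, where it called 1 mitochondrial member lower. Over single named genes and all alternatives, 1648 values kept direction and call, 178 lost the call and 26 turned sign. Of the causes none was tested. Depth limits the members with few reads: mt-Atp8, Cox6b2 and Cox8b were not tested.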

Other observations

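Genes were grouped by the length of all their annotated exons together. Under the authors' scaling, protein-coding genes under 1 kilobase had a median log2 change of -0.18 with TNF (188 genes), against -0.04 at 1 to 2 kilobases, -0.01 at 2 to 4 kilobases and -0.01 at 4 kilobases and over. The nuclear members in those classes had medians of -0.19 (19 members), -0.08, -0.13 and -0.10. With total reads the direction turned: the medians were 0.15, 0.29, 0.32 and 0.32 for all protein-coding genes and 0.14, 0.25, 0.19 and 0.22 for the members.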
